A study of Mus musculus with 30 samples.

Results

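The cell cycle and DNA replication genes are a list of 47 genes whose products drive a cell from the resting state through DNA synthesis and mitosis. They were chosen by name, with no threshold on a measured value, and all 47 were found among the 20764 genes of the heart table and the 54532 genes of the culture table. RNA-seq covered 18 hearts, from female mice in 6 groups of 3, labelled C57BL6 and by the study's methods of a mixed C57Bl6J/N strain. Young mice were 2 months old and old mice 12 months old, and each heart was taken at ZT10 (10 h after lights on, in the light phase) or at ZT22 (in the dark phase) of a 12:12 light and dark cycle. Old mice drank plain water (old H2O) or water with 3 g/L nicotinamide riboside, an NAD+ precursor (old NR), and young mice drank plain water. The study also sequenced 12 cultures labelled HL-1, a line that was made from an atrial tumour of a mouse carrying the SV40 T antigen, in 4 groups of 3. Of these, 1 group had no treatment, 1 had FK866 (an inhibitor of the NAD+ salvage enzyme NAMPT), 1 had NR on top of FK866, and in the last Ex527 (an inhibitor of the deacetylase SIRT1) was added to both. The study's methods describe replicates as single mice in animal experiments and as wells grown apart in cell experiments, so p-values in the cultures measure the spread between wells.

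Cells enter the cycle when D-type cyclins with CDK4 and CDK6, and then cyclin E with CDK2, release E2F transcription factors from the retinoblastoma proteins. Before S phase, CDC6 and CDT1 load the MCM2 to MCM7 helicase onto origins. In S phase the clamp PCNA and the enzymes of nucleotide supply serve DNA synthesis. Entry into mitosis needs CDK1 with B-type cyclins, which WEE1 holds back and CDC25 phosphatases release, and the spindle is then built and checked by kinesins, Aurora kinases and BUB proteins. Adult cardiomyocytes are known to divide rarely, and the other cells of the heart also have low turnover.

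Reads in the hearts summed to between 3922137 and 7562215 counts per library (median 5534659) and in the cultures to between 21337922 and 35000109 (median 25529294). A gene was tested in hearts where its average count was over 5, which left 15443 genes and 44 of the 47 members. Ccnb1 had 1 to 10 counts per heart, Mybl2 0 to 10 and Cdc25c 0 to 5, and these 3 members were not tested there. All 47 members were tested in the cultures, among 14760 genes. Levels are given as TMM-normalized CPM, in which the counts of each library are scaled to the same total, and differences as log2 fold changes ± their standard error from edgeR. Both tables were normalized separately, so values of hearts and cultures are set side by side and not tested against each other.

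The defining markers of the labelled cell type were close to 0 in the cultures. The summed level of 6 cardiomyocyte markers was 0.262 to 4.36 CPM in the 12 cultures and 4657 to 7044 CPM in the hearts, with Actc1 and Pln at 0 in every culture and Tnnt2 at 0.157 to 1.69 CPM. Atrial markers summed to 0.32 to 1.70 CPM in the cultures, with Nppa at most at 0.0859 CPM. The 5 fibroblast markers summed to 650 to 913 CPM, of which the collagen gene Col1a1 gave 466 to 763 CPM and Dcn 97.5 to 183 CPM. The others on that list were low in the cultures. Col1a2 was at 10.8 to 32.1 CPM, Pdgfra at 12.1 to 32.9 CPM and Lum at 0 to 0.278 CPM. In the hearts these were at 160 to 292, 109 to 161 and 102 to 174 CPM. The 12 cultures are therefore called the cultures labelled HL-1. In the hearts, markers of thymocytes (2.32 to 5.36 CPM), B cells (2.04 to 10.1 CPM) and neutrophils (1.01 to 13.5 CPM) had low sums in every library, and those of lung were at 0 to 0.62 CPM.

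On a scale of CPM per kilobase of gene length, 2 G1 cyclins led the members in hearts. Averaged over the 18 hearts, the D-type cyclins Ccnd2 and Ccnd1 stood at 31.2 and 22.5, the kinase Cdk4 at 20.8, the checkpoint kinase Wee1 at 16.4 and the sliding clamp Pcna at 16.1. The proliferation marker Mki67 stood at 1.82, topoisomerase IIα (Top2a) at 1.16, Cdk1 at 0.665 and the phosphatase gene Cdc25c at 0.155, the lowest of the 47. By role, the median was 8.49 for the 2 checkpoint kinases, 5.12 for the cyclins, CDKs and phosphatases of G1 and S, 3.83 for origin licensing and the MCM helicase and 3.71 for the clamp and nucleotide supply. It was 1.49 for Mki67 and Top2a, 0.968 for spindle, kinetochore and division, 0.726 for the transcription factors of the cycle and 0.665 for entry into mitosis. In the cultures the order was another. The ribonucleotide reductase subunit Rrm2 led at 227, followed by Pcna at 199, Cdk4 at 158, Mcm3 at 126 and Top2a at 117, while Cdk6 stood at 6.89 and E2f2 was lowest at 2.57. There the median was 128 for the clamp and nucleotide supply, 74.9 for Mki67 and Top2a, 74.5 for licensing, 48.9 for spindle, 48.5 for entry into mitosis, 15.9 for the transcription factors, 15.5 for G1 and S and 12.4 for the checkpoint kinases. The 18 mitosis members (entry into mitosis, spindle and division, Mki67 and Top2a) together gave 3709 to 4318 CPM in the cultures and 49.0 to 151 CPM in the hearts.

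The promoters of 7 members named in the results are shown (Cdk4, which passed in 1 comparison, for its E-boxes) with the letters of 4 motifs, because genes of mitosis are known to share CCAAT boxes, bound by NF-Y, and a CHR element, bound by the DREAM and MuvB complexes, while E2F sites are known from genes of S phase and the E-box is the site of the clock factors BMAL1 and CLOCK and of MYC. The sequences are from RefSeq on GRCm38.p6, read 5′ to 3′ on the strand of the gene and ending at the base before its start, with the motifs in capitals on either strand. The CCAAT box was searched for by these letters, the CHR element as TTTGAA, the E2F element as GCGGGAA or GCGCGAA, and the E-box as CACGTG, which reads alike on both strands. Mki67 lies at chr7:135716380-135716529 (minus strand), Top2a at chr11:99024190-99024339 (minus), Cdk1 at chr10:69352913-69353062 (minus), Ccnb2 at chr9:70421555-70421704 (minus), Kif11 at chr19:37376232-37376381 (plus), Cdk2 at chr10:128705052-128705201 (minus) and Cdk4 at chr10:127063355-127063534 (plus).
Mki67: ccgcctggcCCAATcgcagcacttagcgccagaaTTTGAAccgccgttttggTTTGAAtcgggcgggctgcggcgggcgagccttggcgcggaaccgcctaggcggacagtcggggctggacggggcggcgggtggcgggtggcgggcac
Top2a: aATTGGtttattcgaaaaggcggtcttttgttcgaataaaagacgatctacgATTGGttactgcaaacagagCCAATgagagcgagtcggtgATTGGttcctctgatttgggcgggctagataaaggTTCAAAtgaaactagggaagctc
Cdk1: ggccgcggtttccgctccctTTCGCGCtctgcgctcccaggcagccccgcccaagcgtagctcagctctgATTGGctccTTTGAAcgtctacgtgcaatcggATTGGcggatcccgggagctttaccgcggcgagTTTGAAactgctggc
Ccnb2: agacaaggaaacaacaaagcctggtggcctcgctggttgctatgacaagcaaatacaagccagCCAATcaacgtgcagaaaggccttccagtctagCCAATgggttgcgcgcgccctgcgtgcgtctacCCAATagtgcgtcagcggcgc
Kif11: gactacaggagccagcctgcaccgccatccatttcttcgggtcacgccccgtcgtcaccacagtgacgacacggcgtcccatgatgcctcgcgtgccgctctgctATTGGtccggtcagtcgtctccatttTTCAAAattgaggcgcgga
Cdk2: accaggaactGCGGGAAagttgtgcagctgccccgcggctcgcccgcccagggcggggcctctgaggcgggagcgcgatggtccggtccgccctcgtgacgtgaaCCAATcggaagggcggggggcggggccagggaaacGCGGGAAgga
Cdk4: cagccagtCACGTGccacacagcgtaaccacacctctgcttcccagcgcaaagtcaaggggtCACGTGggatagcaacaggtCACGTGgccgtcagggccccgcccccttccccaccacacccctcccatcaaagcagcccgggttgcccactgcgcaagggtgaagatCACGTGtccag

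The table held 38 windows for 35 of the 47 members, and Wee1, Tpx2, Myc, Ccnd1 and Ccnd2 are among the 12 named here without one. The 250 bases before each start were searched. A CCAAT box was found in 27 of the 38 windows (71.1%) and in 33.8% of the 32851 windows of all genes. The CHR letters were found in 8 (21.1%, against 16% of all windows), the E2F letters in 8 (21.1%, against 5%) and the E-box in 3 (7.89%, against 6.02%). The CHR letters were in windows of the mitosis genes Mki67, Top2a, Cdk1, Ccnb2, Kif11 and Cdc20, and of Mcm2 and E2f2. The windows of the mitosis genes Ccnb1, Cdc25b, Plk1, Aurka, Birc5, Bub1, Bub1b and Cenpe did not hold them. Within the bases shown, Mki67 has 2 copies of the CHR letters and Cdk1 has 2 copies beside 2 CCAAT boxes, while Cdk4 has 4 copies of the E-box and no CCAAT box. A match is a description of the letters and not evidence of a bound site.

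The time of day in young hearts was compared first. At ZT10 against ZT22, 6 of the 44 tested members passed an adjusted p-value of 0.05 (quasi-likelihood test of edgeR, adjusted after Benjamini and Hochberg over all genes tested), 5 higher and 1 lower, where 14.4% of all 15443 genes passed (6.8% higher and 7.57% lower). The share of members was 13.6%, near that background. The median log2 fold change of the members was 0.00, and 22 of 44 were above 0. In old H2O hearts 8 of 44 passed, 6 higher and 2 lower at ZT10, against 4.2% of all genes (1.56% higher and 2.64% lower). There the median was 0.41 and 36 of 44 members lay above 0. In old NR hearts 4 of 44 passed, all higher at ZT10, against 5.37% of all genes (2.36% higher and 3.01% lower), with a median of 0.00 and 22 of 44 above 0. The median over all genes was -0.01 to 0.01 in these comparisons.

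The genes of mitosis had opposite time differences in young and old H2O hearts. Of the 16 tested mitosis members, 16 had higher means at ZT10 than at ZT22 in old H2O hearts (median log2 difference 0.82), 3 of 16 did in young hearts (median -0.64) and 6 of 16 in old NR hearts (median -0.10). Summed over the 18 mitosis members, the level was 97.1, 94.4 and 151 CPM in the old H2O hearts at ZT10 (114 ± 31.8, mean ± SD, n = 3) and 49.0, 62.6 and 62.9 CPM at ZT22 (58.2 ± 7.97). In young hearts it was 55.9, 89.7 and 68.7 CPM at ZT10 (71.4 ± 17.1) and 74.7, 91.3 and 115 CPM at ZT22 (93.6 ± 20.2). The old H2O groups did not overlap between the times, and the young groups did. In old NR hearts the sum was 72.7, 87.4 and 71.0 CPM at ZT10 and 60.8, 65.0 and 81.0 CPM at ZT22, which overlapped. In whole hearts, fewer dividing cells and less of these RNAs per cell cannot be told apart.

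**Figure D1:**
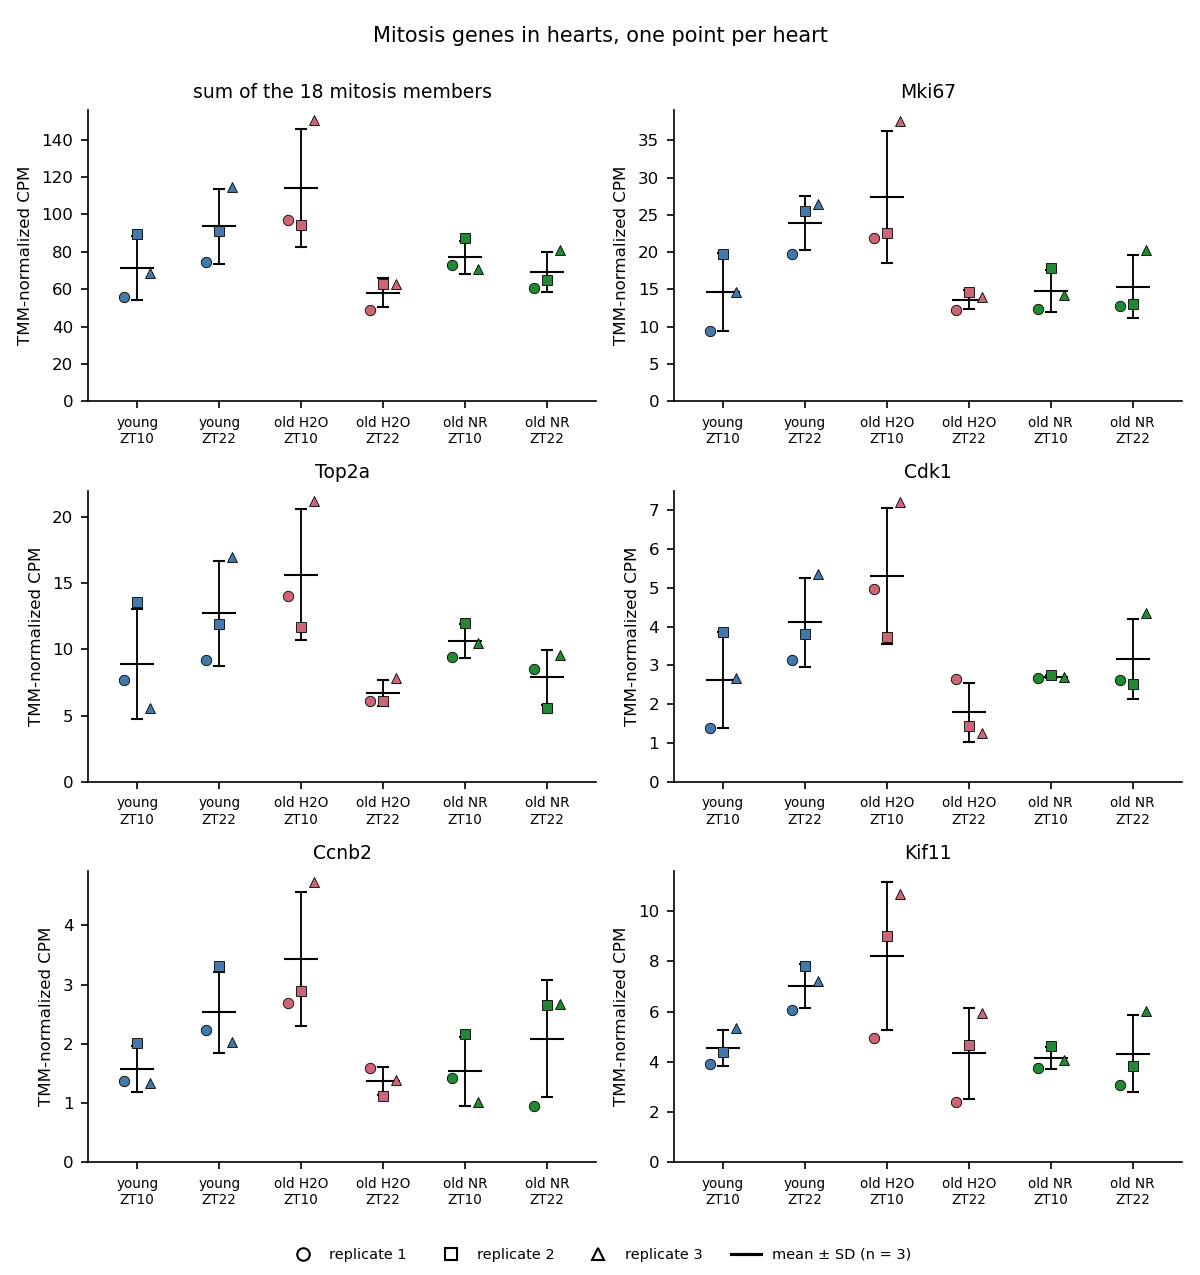
Levels in TMM-normalized CPM of the sum of the 18 mitosis members and of Mki67, Top2a, Cdk1, Ccnb2 and Kif11 in the 6 groups of hearts; points are single hearts and bars the mean ± SD (n = 3). The old H2O hearts at ZT10 (sums 94.4 to 151) lie above those at ZT22 (49.0 to 62.9), while the young hearts lie the other way with overlap.

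Mki67 (ENSMUSG00000031004, chr7:135689784-135716361 of GRCm38, minus strand) encodes a protein that coats mitotic chromosomes and is the usual marker of proliferating cells. Its level was 9.44, 19.8 and 14.7 CPM in young hearts at ZT10 and 19.7, 25.6 and 26.4 CPM at ZT22. In old H2O hearts it was 21.9, 22.6 and 37.6 CPM at ZT10 and 12.2, 14.7 and 14.0 CPM at ZT22. All old H2O hearts at ZT10 were above all at ZT22, and the young groups met at 19.7 to 19.8 CPM. Mki67 was lower at ZT10 in young hearts by a log2 difference of -0.71 ± 0.24 (edgeR adjusted p = 0.0496) and higher at ZT10 in old H2O hearts by 0.98 ± 0.23 (edgeR adjusted p = 0.0167). In old NR hearts it was at 12.3, 17.9 and 14.2 CPM at ZT10 and 12.8, 13.0 and 20.2 CPM at ZT22, a difference of -0.06 (edgeR adjusted p = 0.947). The young call was lost without replicates 1 or 3 at ZT10, without replicates 2 or 3 at ZT22 and with either covariate (log2 differences -0.71 to -0.47), and the old H2O call without replicate 3 at either time.

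Top2a, which untangles DNA before chromosomes part (ENSMUSG00000020914, chr11:98992943-99024189, minus strand), was at 14.0, 11.7 and 21.2 CPM in old H2O hearts at ZT10 and at 6.12, 6.12 and 7.83 CPM at ZT22, with no overlap. It rose at ZT10 by 1.18 ± 0.28 (edgeR adjusted p = 0.0184). Young hearts had 7.67, 13.6 and 5.56 CPM at ZT10 and 9.19, 11.9 and 17.0 CPM at ZT22, and old NR hearts 9.47, 12.0 and 10.5 CPM and then 8.55, 5.56 and 9.55 CPM. The young and the old NR groups overlapped between the times, with log2 differences of -0.49 and 0.46 that did not pass (edgeR adjusted p = 0.28 and 0.431).

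Cdk1, the kinase that starts mitosis (ENSMUSG00000019942, chr10:69335146-69352938, minus strand), was at 4.96, 3.74 and 7.2 CPM in old H2O hearts at ZT10 and at 2.66, 1.45 and 1.26 CPM at ZT22. These groups did not overlap, and Cdk1 rose at ZT10 by 1.66 ± 0.37 (edgeR adjusted p = 0.0105). In young hearts Cdk1 was at 1.38, 3.85 and 2.67 CPM at ZT10 and at 3.14, 3.82 and 5.36 CPM at ZT22, and in old NR hearts at 2.68, 2.74 and 2.7 CPM and at 2.61, 2.52 and 4.35 CPM. In both of those the groups overlapped and the difference did not pass (-0.64 and -0.24). Such values rest on few reads, since Cdk1 had 7 to 35 counts per heart.

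The partner of Cdk1, cyclin B2 (Ccnb2, ENSMUSG00000032218, chr9:70407692-70421547, minus strand), was at 2.69, 2.89 and 4.73 CPM in old H2O hearts at ZT10 and at 1.6, 1.13 and 1.39 CPM at ZT22, a rise of 1.33 ± 0.38 (edgeR adjusted p = 0.0464) that was lost under 10 of 14 alternatives. It was at 1.38, 2.02 and 1.33 CPM in young hearts at ZT10 and at 2.24, 3.32 and 2.03 CPM at ZT22. Ccnb2 had 4 to 23 counts per heart. The mitotic kinesin Kif11 (ENSMUSG00000012443, chr19:37376403-37421859, plus strand) was at 3.93, 4.4 and 5.33 CPM in young hearts at ZT10 and at 6.06, 7.8 and 7.21 CPM at ZT22, which did not overlap. In old H2O hearts Kif11 was at 4.96, 9 and 10.7 CPM at ZT10 and at 2.4, 4.67 and 5.94 CPM at ZT22, which did. The spindle assembly factor Tpx2 (ENSMUSG00000027469, chr2:152847964-152895321, plus strand) was at 2.36, 4.58 and 2.67 CPM in young hearts at ZT10 and at 5.83, 3.98 and 9.61 CPM at ZT22, and at 5.16, 4.92 and 8.84 CPM and then 3.19, 4.83 and 3.66 CPM in old H2O hearts. Neither Kif11 nor Tpx2 passed with edgeR at either age alone. Of 14 alternatives each, 3 called Kif11 in old H2O hearts (among them the replicate block) and 3 called Tpx2 in young hearts (the replicate block and leaving out replicate 2 at either time).

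The difference between those time differences was tested as an age by time interaction. Here 8 of 44 members passed, 6 higher and 2 lower, against 6.89% of all genes (3.13% higher and 3.76% lower), and a positive value means that the ZT10 minus ZT22 difference was larger in old H2O than in young hearts. The 6 higher members were all genes of mitosis, and all 16 tested mitosis members had positive values (median 1.52, against 0.00 over all genes). Mki67 had 1.69 ± 0.33 (edgeR adjusted p = 0.0039), Top2a 1.68 ± 0.40 (0.0136), Cdk1 2.29 ± 0.52 (0.0092) and Ccnb2 2.01 ± 0.54 (0.0274). Kif11 had 1.47 ± 0.41 (edgeR adjusted p = 0.0329) and Tpx2 1.64 ± 0.47 (0.0394). The 2 lower members were the kinases Cdk6 and Cdk2.

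Replicate 3 of the old H2O hearts at ZT10 had the highest level of the 18 hearts for 11 of the 18 mitosis members, and replicate 3 of the young hearts at ZT22 for 5. Without the first, 4 members passed in old H2O hearts between the times and 5 in the interaction, where 349 and 777 of all 15458 genes did. The time difference of Mki67 was then 0.69 (edgeR adjusted p = 0.142, of 0.00213 to 0.142 over its alternatives), that of Top2a 0.91 (0.134, of 0.00368 to 0.134), that of Cdk1 1.37 (0.0805, of 0.00623 to 0.0805) and that of Ccnb2 1.04 (0.228, of 0.00681 to 0.228), and none of these passed. Single hearts at ZT22 mattered as well: Top2a did not pass without replicate 2, Mki67 without replicate 3 and Cdk1 without either, and Ccnb2 did not pass without any 1 of the 6 old H2O hearts, with DESeq2, without a filter, in a fit of only the groups compared or with the atrial covariate. In the interaction, Mki67 and Cdk1 passed under all 20 alternatives, Top2a under 19 (not without replicate 3 of the young hearts at ZT22, 1.42), Ccnb2 and Tpx2 under 13 and Kif11 under 12. Without replicate 3 of the old H2O hearts at ZT10, Kif11, Tpx2 and Ccnb2 did not pass in the interaction.

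Marker genes of other cells also differed between these groups. The 5 atrial markers summed to 388 to 505 CPM in the old H2O hearts at ZT10, 123 to 530 CPM at ZT22, 154 to 744 CPM in young hearts at ZT10 and 126 to 260 CPM in young hearts at ZT22. With their log2 sum as a covariate, 9 members passed in the interaction and 6 in old H2O hearts between the times, where 914 and 356 of all 15443 genes did. The 5 endothelial markers summed to 1457 to 1601 CPM in young hearts at ZT22 and to 1265 to 1326 CPM at ZT10, and in old H2O hearts to 1236 to 1453 CPM and 1236 to 1273 CPM. The 5 macrophage markers summed to 306 to 346 CPM in old H2O hearts at ZT22 and to 269 to 297 CPM at ZT10. In young hearts they summed to 217 to 234 CPM at ZT22 and to 232 to 265 CPM at ZT10. The part of endothelial cells and macrophages in the result was not tested.

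**Figure D2:**
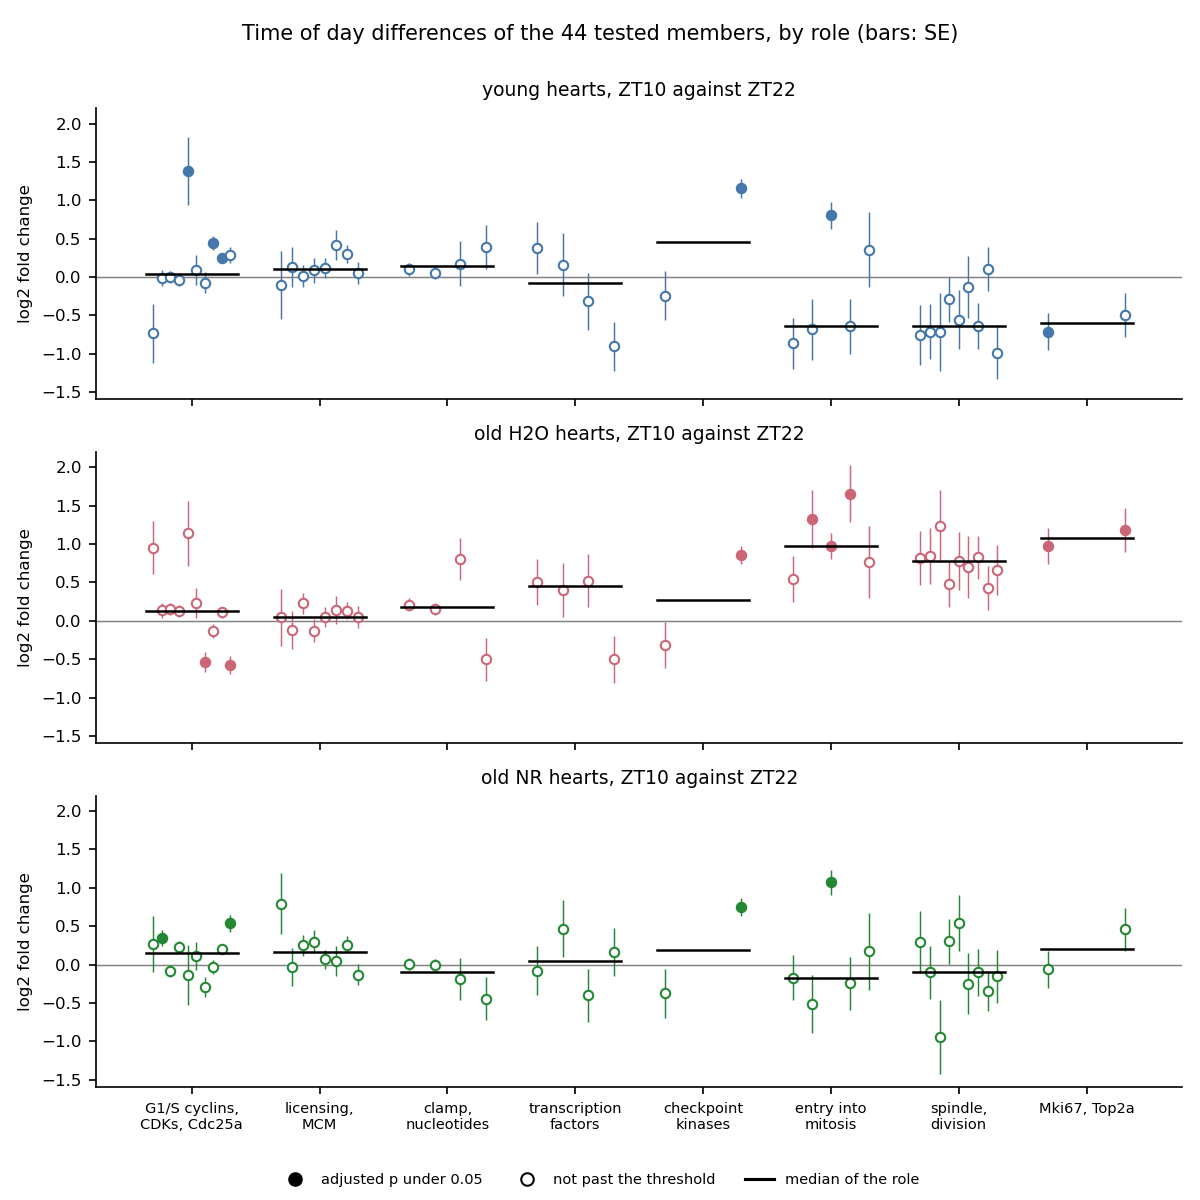
Log2 fold change ± SE of each of the 44 tested members at ZT10 against ZT22 in young, old H2O and old NR hearts, grouped by role; filled points passed an adjusted p of 0.05 and black bars are the medians of a role. The genes of entry into mitosis and of the spindle lie mostly under 0 in young hearts and above 0 in old H2O hearts, while Wee1 and Cdc25b lie above 0 in all 3.

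Age at a fixed time gave the mitosis members opposite signs. At ZT10, 5 of 44 members passed in old H2O against young hearts, 3 higher and 2 lower, against 5.87% of all genes (2.95% higher and 2.92% lower). At ZT22 4 passed, 1 higher and 3 lower, against 14.1% (7.96% higher and 6.17% lower). The share of members that passed at ZT22 was thus under that of all genes, and the share called lower was near it. All 16 tested mitosis members had higher means in old H2O hearts at ZT10 (median 0.81) and all 16 had lower means at ZT22 (median -0.65). Mki67 was the mitosis member that passed at ZT10, with 0.89 ± 0.24 (edgeR adjusted p = 0.0272). At ZT22, Cdk1 fell by 1.32 ± 0.38 on the log2 scale (edgeR adjusted p = 0.0244), Mki67 by 0.80 ± 0.24 (0.0263) and Top2a by 0.91 ± 0.29 (0.0396). The ZT22 calls rested on single hearts: Mki67 and Top2a did not pass without any 1 of the old H2O hearts or without replicates 2 or 3 of the young hearts, nor Cdk1 without replicates 2 or 3 of the old H2O or replicate 3 of the young hearts. Mki67 at ZT10 did not pass without replicate 3 of the old H2O or replicates 1 or 3 of the young hearts. These comparisons use the same hearts as the time comparisons.

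The cyclin-dependent kinase Cdk6, which acts with D-type cyclins in G1 (ENSMUSG00000040274, chr5:3341485-3531008, plus strand), followed another pattern. It was at 37.2, 49.4 and 42.8 CPM in old H2O hearts at ZT10 and at 65.8, 62.1 and 66.0 CPM at ZT22, with no overlap. Young hearts had 83.6, 94.1 and 70.0 CPM at ZT10 and 65.3, 74.7 and 63.4 CPM at ZT22, which overlapped. Old NR hearts had 64.5, 77.0 and 58.1 CPM at ZT10 and 42.5, 47.7 and 46.6 CPM at ZT22, the reverse of the old H2O order and again with no overlap. Cdk6 was lower at ZT10 in old H2O hearts by -0.57 ± 0.12 (edgeR adjusted p = 0.00494) and higher at ZT10 in old NR hearts by 0.54 ± 0.11 (0.00448), and in young hearts its difference of 0.29 did not pass (0.0831). It was lower in old H2O than in young hearts at ZT10 by -0.93 ± 0.11 (edgeR adjusted p = 3.67e-05), and the age by time interaction was -0.86 ± 0.16 (0.00238). Both passed under every alternative run.

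Cdk2, the kinase of the G1/S transition (ENSMUSG00000025358, chr10:128697939-128705031, minus strand), was at 45.8, 43.6 and 46.5 CPM in young hearts at ZT10 and at 29.9 to 39.8 CPM in the other 15 hearts. The young ZT10 hearts thus stood above every other heart. In young hearts Cdk2 was at 33.2, 32.5 and 33.8 CPM at ZT22, a log2 difference of 0.45 ± 0.09 (edgeR adjusted p = 0.00146). It fell in old H2O against young hearts at ZT10 by 0.46 ± 0.09 on the log2 scale (edgeR adjusted p = 0.00304), and its age by time interaction was -0.58 ± 0.13 (0.00748).

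**Figure D3:**
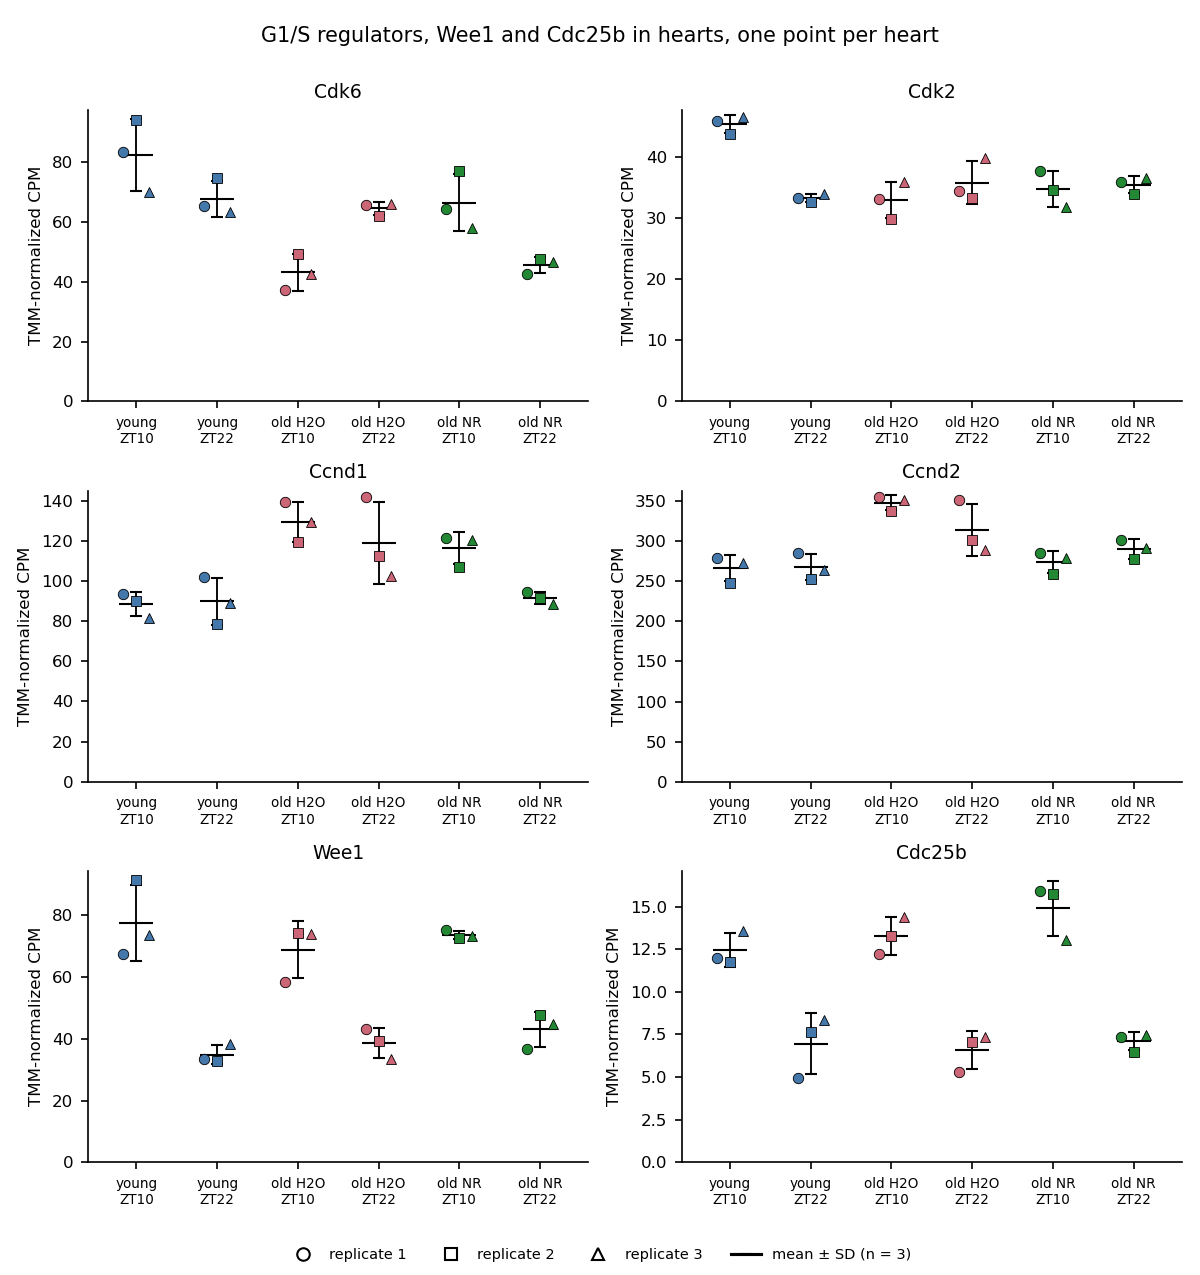
Levels in TMM-normalized CPM of Cdk6, Cdk2, Ccnd1, Ccnd2, Wee1 and Cdc25b in the 6 groups of hearts; points are single hearts and bars the mean ± SD (n = 3). Cdk6 is lowest in old H2O hearts at ZT10 (37.2 to 49.4) and old NR hearts at ZT22 (42.5 to 47.7), Cdk2 is highest in young hearts at ZT10, and Wee1 and Cdc25b are higher at ZT10 in all 3 kinds of mice.

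Of the D-type cyclins, which activate CDK4 and CDK6, Ccnd1 and Ccnd2 were higher in old H2O than in young hearts. Ccnd1 (ENSMUSG00000070348, chr7:144929931-144939925, minus strand) was at 93.6, 90.2 and 81.8 CPM in young hearts at ZT10 and 102, 78.5 and 89.1 CPM at ZT22, and at 139, 119 and 130 CPM and 142, 113 and 103 CPM in old H2O hearts. Every old H2O heart was above every young heart, and Ccnd1 rose with age by 0.54 ± 0.10 at ZT10 (edgeR adjusted p = 0.00256) and by 0.39 ± 0.10 at ZT22 (0.0128). The ZT22 call was lost without replicate 2 of the young hearts (0.30) and in a fit of only the groups compared. In old NR hearts Ccnd1 was at 121, 107 and 120 CPM at ZT10 and 94.6, 91.7 and 88.5 CPM at ZT22, higher at ZT10 by 0.35 ± 0.10 (edgeR adjusted p = 0.0442). That call was lost under 8 of 15 alternatives, among them leaving out replicates 1 or 3 at ZT10 or 2 or 3 at ZT22.

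Ccnd2 (ENSMUSG00000000184, chr6:127125162-127152193, minus strand) was at 279, 248 and 273 CPM in young hearts at ZT10 and 285, 253 and 263 CPM at ZT22, and at 355, 337 and 351 CPM and 351, 301 and 289 CPM in old H2O hearts. It rose with age at ZT10 by 0.38 ± 0.08 (edgeR adjusted p = 0.00467), and at ZT22 its difference of 0.23 did not pass (0.0544). Of 14 alternatives, 6 called the difference at ZT22. In old NR hearts Ccnd2 was at 285, 259 and 278 CPM and 302, 278 and 292 CPM. At ZT22, replicate 1 of the old NR hearts was above the lowest old H2O heart. Ccnd3 passed in no comparison of hearts. It had 72, 64.9 and 68.5 CPM in young hearts at ZT10 and 67.7, 66.9 and 75.3 CPM at ZT22, 72.7, 69.6 and 81 CPM and then 78.5, 67.5 and 60.9 CPM in old H2O hearts, and 71.8, 74.4 and 73.7 CPM and then 63.7, 61.2 and 62.5 CPM in old NR hearts. Of the exonic bases of Ccnd1, 23.4% are shared with a gene on the opposite strand, and 7.86% of those of Ccnd2 and 19.7% of those of Cdk4. The strand setting of the counting was not given in the sources used here.

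Of the other G1 and S members, Cdk4 (ENSMUSG00000006728, chr10:127063534-127067920, plus strand), Ccne1 and Cdc25a passed in 1 comparison each. Cdk4 was at 77.7, 73.2 and 73.4 CPM in young hearts at ZT10 and 65.7, 64.2 and 59.0 CPM at ZT22, higher at ZT10 by 0.25 ± 0.07 (edgeR adjusted p = 0.0182). Cyclin E1 (Ccne1), the partner of CDK2, was at 5.11, 2.75 and 3.11 CPM and at 2.02, 0.83 and 1.48 CPM in the same hearts, higher at ZT10 by 1.38 ± 0.44 (edgeR adjusted p = 0.039) with 5 to 26 counts per heart. In old H2O hearts Ccne1 was at 4.34, 3.91 and 2.06 CPM at ZT10 and 1.6, 0.805 and 2.15 CPM at ZT22, and in old NR hearts at 1.43, 2.89 and 2.7 CPM and 1.43, 2.38 and 3.65 CPM. Both overlapped between the times. The phosphatase Cdc25a, which activates CDK2, was at 15.3, 14.3 and 18.7 CPM in old H2O hearts at ZT10 and 22.9, 24.5 and 22.2 CPM at ZT22, lower at ZT10 by -0.53 ± 0.13 (edgeR adjusted p = 0.0233). Leaving out replicates 1 or 3 of the young hearts at ZT10 or replicates 2 or 3 at ZT22 ended the call of Ccne1 (1.06 to 1.47), as did DESeq2 and the atrial covariate, replicate 1 of the young hearts at ZT10 or replicate 3 at ZT22 that of Cdk4 (0.20 to 0.22), as did DESeq2, and replicates 1 or 2 at ZT10 or 2 at ZT22 of the old H2O hearts that of Cdc25a (-0.51 to -0.45), as did the atrial covariate.

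Wee1 and Cdc25b, which act in opposite ways on CDK1, were both higher at ZT10 in all 3 kinds of mice. Wee1, the inhibitory kinase and a known target of the circadian clock (ENSMUSG00000031016, chr7:110122046-110143286, plus strand), was at 67.5, 91.3 and 73.6 CPM in young, 58.3, 74.2 and 74.0 CPM in old H2O and 75.2, 72.5 and 73.2 CPM in old NR hearts at ZT10. At ZT22 it was at 33.4, 32.9 and 38.3 CPM, 43.1, 39.3 and 33.5 CPM and 36.8, 47.7 and 44.8 CPM. Every ZT10 heart stood above every ZT22 heart, with log2 differences of 1.16 ± 0.12 (edgeR adjusted p = 8.35e-07), 0.86 ± 0.12 (0.00013) and 0.75 ± 0.11 (0.000215).

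Cdc25b, the phosphatase that opposes Wee1 (ENSMUSG00000027330, chr2:131186949-131198497, plus strand), was at 12, 11.7 and 13.6 CPM in young, 12.2, 13.2 and 14.4 CPM in old H2O and 15.9, 15.7 and 13 CPM in old NR hearts at ZT10. At ZT22 it was at 4.93, 7.63 and 8.32 CPM, 5.32, 7.08 and 7.33 CPM and 7.37, 6.49 and 7.44 CPM. Again no ZT10 heart overlapped a ZT22 heart, and the log2 differences were 0.81 ± 0.18 (edgeR adjusted p = 0.0031), 0.97 ± 0.17 (0.00171) and 1.07 ± 0.16 (0.000234). The 6 calls of Wee1 and Cdc25b were kept under every alternative. The interaction of time with age and that of time with NR did not pass for Wee1 (-0.29 ± 0.17 and -0.11 ± 0.16) or for Cdc25b (0.16 ± 0.25 and 0.10 ± 0.24).

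The 12 members of origin licensing and DNA synthesis showed no difference that passed in any comparison of hearts. These are the licensing factors, the MCM helicase, the clamp and the nucleotide enzymes, and their summed level was 203 to 267 CPM in all 18 hearts. Their median log2 difference between the times was 0.11 in young, 0.09 in old H2O and 0.03 in old NR hearts, and with age it was 0.06 at ZT10 and 0.12 at ZT22. At an unadjusted p under 0.05, 0 to 2 of the 12 passed in each comparison. Pcna was at 40.3, 40.5 and 38.5 CPM in young hearts at ZT10 and 36.6, 37.3 and 37.2 CPM at ZT22, at 44.4, 37.9 and 43.4 CPM and 36.5, 37.7 and 34.5 CPM in old H2O hearts, and at 37.9, 37.4 and 39.9 CPM and 40.6, 34 and 40.4 CPM in old NR hearts. The helicase subunit Mcm2 was at 19.5, 21.5 and 21.8 CPM and 19.5, 16.8 and 26.1 CPM in young, 26.4, 21.9 and 24.5 CPM and 21, 22.2 and 19.1 CPM in old H2O, and 21.4, 19.2 and 20.6 CPM and 14.3, 17 and 19.4 CPM in old NR hearts.

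The transcription factors of the cycle did not pass with edgeR in hearts either. E2f1, which turns on genes of S phase, was at 2.95, 3.85 and 2.45 CPM in young hearts at ZT10 and 1.57, 1.83 and 3.7 CPM at ZT22, at 3.72, 3.4 and 6.17 CPM and 2.93, 3.38 and 2.91 CPM in old H2O hearts, and at 1.96, 2.6 and 2.87 CPM and 2.14, 2.91 and 2.67 CPM in old NR hearts. Myc, a growth factor response gene, was at 4.92, 8.44 and 5.56 CPM and 6.06, 18.1 and 10.5 CPM in young, 7.02, 9.17 and 6.79 CPM and 8.78, 8.69 and 14.3 CPM in old H2O, and 5.89, 9.82 and 9.3 CPM and 7.6, 8.74 and 6.18 CPM in old NR hearts. The difference of Myc between the times in young hearts was -0.90 (edgeR adjusted p = 0.063), and 3 of 14 alternatives called it, namely the replicate block and leaving out replicate 2 at ZT10 or replicate 1 at ZT22 (adjusted p from 0.00821 to 0.502 over all 14).

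NR in old hearts was compared with plain water at each time. At ZT10, 1 of 44 members passed, higher, against 0.285% of all genes (0.117% higher and 0.168% lower), and at ZT22 0 passed, against 0.35% (0.0907% higher and 0.259% lower). At ZT22, 5 members were under an unadjusted p of 0.05 with edgeR, and DESeq2 called 1, Cdk6. The member that passed at ZT10 was Cdk6, higher with NR by 0.62 ± 0.11 (edgeR adjusted p = 0.0227), and at ZT22 its difference was -0.49 (0.0579). The counts of replicates 1 and 3 of the old NR hearts at ZT10 differed by little more than counting noise (chi-square per degree of freedom 1.07, p = 4.31e-08), against 1.71 to 6.68 in all other pairs of replicate hearts. With them summed as 1 library, Cdk6 at ZT10 had 0.66 (edgeR adjusted p = 0.0805, of 0.0026 to 0.204) and its interaction with time 1.15 (0.0131, of 1.31e-05 to 0.0351). The ZT10 call was lost under 7 of 15 alternatives, namely this one, without any 1 of the old NR hearts at ZT10, without replicates 1 or 3 of the old H2O hearts and with the atrial covariate (0.63, edgeR adjusted p = 0.204, of 0.0026 to 0.204), while the NR by time interaction of Cdk6, 1.11 ± 0.16 (0.00562), was kept under all 21. Atrial markers summed to 112 to 130 CPM in old NR hearts at ZT10 against 388 to 505 CPM in old H2O hearts, and 3 of the 5 passed as lower. In the NR by time interaction Cdk6 was the 1 of 44 members that passed, against 0.343% of all genes (0.233% higher and 0.11% lower).

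The mitosis members had lower means with NR at ZT10 without passing. Of the 16 tested, 15 were below 0 and 1, Cdc25b, was above it, with a median of -0.63, and 7 had an unadjusted p under 0.05. All 3 old NR hearts at ZT10 were below all 3 old H2O hearts for Mki67 (-0.87, edgeR adjusted p = 0.13), Cdk1 (-0.94, 0.297) and Ccnb2 (-1.11, 0.252). At ZT22, 11 of 16 were above 0, with a median of 0.18. In the interaction 1 of 16 was above 0, the median was -0.79 and 5 had an unadjusted p under 0.05. The old H2O hearts at ZT10 also enter the time and age comparisons, so these results share 3 hearts.

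A list of 90 other genes of the same pathway was read from the same fit, 84 of them tested in hearts. In old H2O hearts 3 passed as higher and 1 as lower at ZT10, 4.76% of the list against 4.2% of all genes. The higher were the microtubule-binding Hmmr (1.78 ± 0.31), the ubiquitin conjugating enzyme Ube2c of the anaphase-promoting complex (1.58 ± 0.38) and the cytokinesis factor Ect2 (1.5 ± 0.38), all genes of mitosis. In the age by time interaction 7 passed as higher and 1 as lower, 9.52% against 6.89%, led by Hmmr (2.27 ± 0.47), Ube2c (2.00 ± 0.58) and Ect2 (1.80 ± 0.53). The lower gene was Cenpf (-1.37), also a gene of mitosis, and its call was kept under all 20 alternatives. Both calls of Hmmr were kept under every alternative, while in old H2O hearts Ube2c passed under 10 and Ect2 under 8 of 14, and in the interaction under 12 and 6 of 20. All these calls of Ube2c and Ect2 were lost with the length index, described below for Mki67 in the cultures, as a covariate. Among the 35 tested genes of mitosis on this list, 32 had higher means at ZT10 in old H2O hearts (median 0.54) and 30 had a positive age by time interaction (median 0.82). Of its 32 genes of origin recognition, the helicase and the replisome, 13 were positive there (median -0.13) and 0 passed with edgeR, 5 having an unadjusted p under 0.05.

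In young hearts 6 genes of this list were higher and 7 lower at ZT10, 15.5% against 14.4% of all genes, led by the CDK inhibitor Cdkn1a (-2.43 ± 0.22), the kinetochore gene Cenpf (1.23 ± 0.15) and the kinesin Kif22. With age at ZT10, 4 were higher and 2 lower (7.14% against 5.87%), led by Hmmr (1.46), Ube2c (1.38) and Cdkn1a (1.05), and at ZT22 3 were higher and 7 lower (11.9% against 14.1%), led by Cenpf (1.27), the repressor E2f7 (-0.87) and the midzone factor Prc1 (-0.84). In old NR hearts the gene that passed between the times was Cdkn1a (-1.15), 1.19% of the list against 5.37%. With NR against water Hmmr was lower at ZT10 (-1.39 ± 0.29, edgeR adjusted p = 0.0437) and had an NR by time interaction of -2.16 ± 0.45 (0.0325), and no other gene of the list passed in those, 1.19% in each against 0.285% and 0.343%. These calls of Hmmr were lost under 9 of 15 and 13 of 21 alternatives. At ZT10 0 of all genes passed without replicate 3 of the old H2O hearts, without replicates 1 or 3 of the old NR hearts, with those summed as 1 library or with the atrial covariate. At ZT22 0 passed with NR.

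In the cultures labelled HL-1, members moved by small amounts. The threshold for a call there was an adjusted p under 0.01 together with a log2 fold change beyond 0.58 in either direction. With FK866 against no treatment 0 of 47 members were called, against 4.59% of all genes (2.09% higher and 2.5% lower), and DESeq2 also called 0. The log2 fold changes lay between -0.35 and 0.55, 19 members had an unadjusted p under 0.05, and 7 had an adjusted p under 0.01, 3 higher and 4 lower. The share of all genes past either limit alone was not computed in the cultures, nor that at the unadjusted limit in hearts. Counts at these limits therefore stand without a background. Of the 7 members, the higher were Myc (0.55 ± 0.08), the factor of late cell cycle genes Mybl2 (0.44) and the checkpoint kinase Chek1 (0.35), and the lower were Ccnd3 (-0.35), the spindle checkpoint gene Bub1b (-0.33), Cdk4 (-0.32) and Rrm2 (-0.32).

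Myc (ENSMUSG00000022346, chr15:61985391-61990374, plus strand) was at 34.9, 39.5 and 41.7 CPM in untreated cultures, 59.3, 56.3 and 54.8 CPM with FK866, 34.3, 35.6 and 39.6 CPM with FK866 and NR, and 48, 51.2 and 53.3 CPM with Ex527 added. The FK866 cultures stood above all others, and those with FK866 and NR overlapped the untreated ones. With FK866 and NR against FK866, Myc was the 1 of 47 members called, lower by -0.64 ± 0.08 (edgeR adjusted p = 4.62e-05), against 4.81% of all genes (2.79% higher and 2.02% lower). Mybl2 (-0.45), Chek1 (-0.31) and Mcm5 (-0.24) were lower and Cdk6 (0.40), Rrm2 (0.25) and Bub1b (0.25) higher at an adjusted p under 0.01 without passing the fold threshold. With Ex527 added to FK866 and NR, 0 members were called, against 0.596% of all genes, 0.21% higher and 0.386% lower (11 with an unadjusted p under 0.05, DESeq2 0). There Myc was higher by 0.48 ± 0.08 (edgeR adjusted p = 0.00244), under the fold threshold. With the length index described for Mki67 as a covariate the fall of Myc with NR was -0.55 (edgeR adjusted p = 8.27e-05). This fall was past the limit on the adjusted p and under the fold threshold. That index was -0.32 to 0.16 with FK866 and 0.17 to 0.29 with FK866 and NR. It did not overlap, so it cannot be told apart from the treatment.

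**Figure D4:**
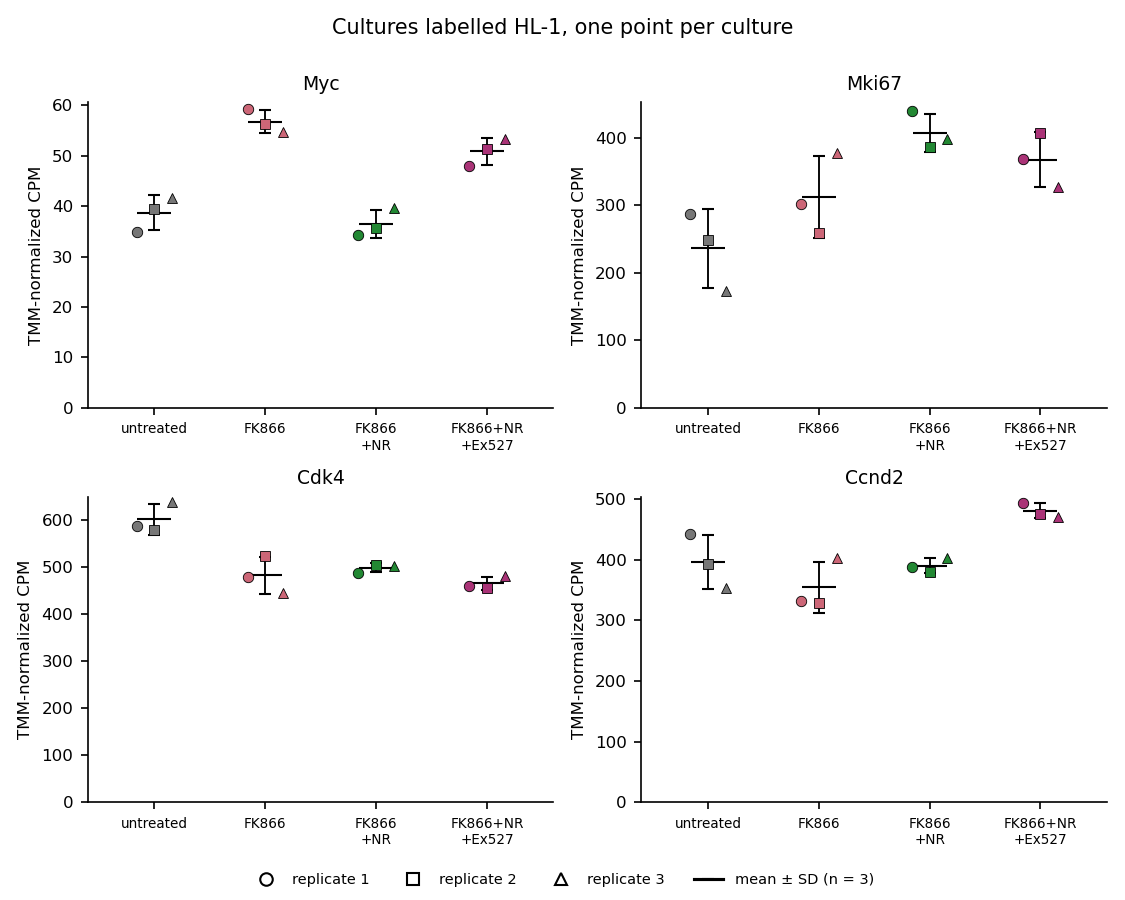
Levels in TMM-normalized CPM of Myc, Mki67, Cdk4 and Ccnd2 in the 4 groups of cultures labelled HL-1; points are single cultures and bars the mean ± SD (n = 3). Myc is highest with FK866 (54.8 to 59.3), and Mki67 lies between 173 and 288 untreated and between 386 and 439 with FK866 and NR.

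With FK866 and NR against no treatment, 1 of 47 members was called, against 0.901% of all genes (0.793% higher and 0.108% lower). It was Mki67, at 288, 249 and 173 CPM untreated, 302, 258 and 378 CPM with FK866, 439, 386 and 398 CPM with FK866 and NR, and 369, 408 and 327 CPM with Ex527 added, higher by 0.78 ± 0.16 (edgeR adjusted p = 0.00942). The call was lost under 8 of 13 alternatives, among them leaving out any 1 of the FK866 and NR cultures or replicates 2 or 3 of the untreated ones (0.60 to 0.83). Mki67 is long, with 10061 exonic bases, and libraries differed in how long genes compared with short ones. The median log2 deviation of genes over 6000 bases from their mean over libraries, minus that of genes under 2000 bases, was -0.43 to -0.04 in untreated cultures and 0.17 to 0.29 with FK866 and NR. With this index as a covariate Mki67 had 0.18 (edgeR adjusted p = 0.59, of 8.81e-08 to 0.59). Of all 14760 genes, 1 was called with the index and 133 without it. The index did not overlap between these groups, so its part and that of the treatment cannot be told apart. The index for hearts was -0.10 to 0.13. In old H2O hearts it was -0.07 to -0.005 at ZT10 and 0.008 to 0.13 at ZT22, with no overlap. Its part and that of the time of day cannot be told apart there either. With it as a covariate, 9 of 44 members passed between those times, where 564 of all 15443 genes did.

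The remaining named members of the cultures differed by little. Top2a was at 1080, 999 and 843 CPM untreated, 953, 850 and 1040 CPM with FK866, 1172, 1175 and 1190 CPM with FK866 and NR and 1137, 1098 and 1104 CPM with Ex527 added, and Cdk1 at 234, 248 and 261 CPM, 226, 236 and 209 CPM, 207, 220 and 228 CPM and 224, 215 and 224 CPM in that order. Pcna was at 477, 509 and 569 CPM, 529, 560 and 454 CPM, 398, 433 and 437 CPM and 459, 416 and 503 CPM, and Mcm2 at 350, 350 and 338 CPM, 327, 325 and 335 CPM, 305, 325 and 347 CPM and 343, 358 and 371 CPM. The Pcna levels with FK866 and NR were below all untreated ones, and the Mcm2 groups lay close together. Cdk4 was highest in untreated cultures, at 587, 579 and 639 CPM, against 446 to 524 CPM in the other 9 cultures. Ccnd2 was highest with Ex527 added, at 495, 476 and 471 CPM, against 443, 393 and 353 CPM untreated, 388, 379 and 403 CPM with FK866 and NR and 332, 329 and 403 CPM with FK866. Against FK866 this was a difference of 0.44 ± 0.08 (edgeR adjusted p = 0.00406) that is under the fold threshold. In that comparison 0 of 47 members were called, against 1.27% of all genes, 0.413% higher and 0.86% lower (11 with an unadjusted p under 0.05, DESeq2 0). Ccnd1 was at 63.3, 57.5 and 56.5 CPM, 53.6, 43.8 and 56.6 CPM, 51, 55 and 59.4 CPM and 67.5, 66.3 and 62.2 CPM in the same order. Ccnd3 was at 133, 145 and 149 CPM, 109, 119 and 107 CPM, 125, 121 and 128 CPM and 122, 139 and 123 CPM, lowest with FK866. Ccne1 was at 38, 38.9 and 40.3 CPM, 35.2, 38.2 and 34.2 CPM, 31.9, 33 and 34.4 CPM and 36.3, 36.7 and 36.4 CPM. Wee1 was at 54.2, 54.3 and 58.9 CPM, 47.9, 45.3 and 48.2 CPM, 53.3, 52.7 and 56 CPM and 45, 46.3 and 52 CPM, with the FK866 cultures below the untreated ones. E2f1 was at 48.7, 53.4 and 53.8 CPM, 46, 54.2 and 48.7 CPM, 43.7, 47.2 and 48.4 CPM and 52, 53.5 and 53.1 CPM.

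Of the 89 tested genes of the pathway list, the CDK inhibitors Cdkn2a (-0.85) and Cdkn2b (-0.65) were called as lower with FK866, Tfdp2 (0.61) as higher with FK866 and NR against FK866 and Cenpf (0.71) as higher with FK866 and NR against no treatment, and 0 were called with Ex527 added. The call of Cenpf was lost under 8 of 13 alternatives (0.13 to 0.90 over all 13), and 0 of the tested genes of all kinds passed in that comparison with the other filter, without replicates 2 or 3 of the untreated cultures or without any 1 of those with FK866 and NR.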

How the data were processed

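RNA-seq of 18 hearts and 12 cultures labelled HL-1 was analysed from the deposited tables. For the hearts the authors trimmed reads with Trimmomatic 0.39, aligned them to mm10 with STAR 2.7.10a, removed duplicates with Picard 3.0.0 along with multi-mapping, ribosomal and mitochondrial reads, and counted exons with featureCounts 2.0.4, leaving out reads over several genes. The authors deposited these counts in the table named as normalized. The other deposited heart table holds a score, counts that the authors divided by DESeq2 1.36.0 size factors and rounded, of which only the gene symbols were used here. For the cultures the authors deposited counts and FPKM values (the FPKM values were not tested). HISAT2, TopHat2 and mm10 are named in the submitters' processing notes, and the counter is not given in the sources used here. Removing duplicates without molecular identifiers can lower the counts of highly expressed genes.

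Counts were fitted with edgeR 4.0.16 (TMM, quasi-likelihood F-test, two-sided; limma 3.58.1, R 4.3.3), all 18 hearts in 1 fit (average count over 5, adjusted p under 0.05) and all 12 cultures in another (filterByExpr, adjusted p under 0.01 and absolute log2 fold change over 0.58). Levels per length used the gene lengths of the culture table. Depth was 3922137 to 7562215 counts per heart and 21337922 to 35000109 per culture. All pairs of replicates differed beyond counting noise, but replicates 1 and 3 of the old NR hearts at ZT10 came close to it (chi-square per degree of freedom 1.07), and summing them as 1 library was added as an alternative. Positions are from GENCODE M21 and promoters from RefSeq GRCm38.p6. The fits were tested on simulated data. DESeq2 1.42.0, other size factors and filters, fits of only the groups compared, a replicate block and leaving out each library were tried as alternatives, and covariates for the length index and the atrial markers were added after seeing the data. The members and gene lists were chosen with earlier results of these data known. Every member called in a comparison is named, 12 members are given by sample throughout, and of the other pathway genes the 3 with the largest change. Doses of the culture treatments are not reported here.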

Additional observations from a re-analysis of the deposited data

Results flagged for a closer look

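In 8 members the difference between ZT10 and ZT22 itself differed between young and old H2O hearts by the age by time interaction of edgeR. On the log2 scale it was 1.69 for Mki67, 1.68 for Top2a, 2.29 for Cdk1, 2.01 for Ccnb2, 1.47 for Kif11 and 1.64 for Tpx2, all genes of mitosis, and -0.86 for Cdk6 and -0.58 for Cdk2. In 1 member the difference between the times differed between old H2O and old NR hearts, Cdk6, with an NR by time interaction of 1.11. Of all genes tested 6.89% passed in the former and 0.343% in the latter. Both rest on the same 6 old H2O hearts. Cdk6 was lower at ZT10 than at ZT22 in old H2O hearts and higher in old NR hearts, in both with no overlap.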

How the results depend on the processing

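Over 604 alternative fits of the 39 calls of members, 502 kept the call, 102 lost it and 0 reversed it. 18 calls, all in hearts, were kept under every alternative. Leaving out each library in turn gave 3 to 8 members called between the times in young hearts, 4 to 7 in old H2O hearts and 3 to 4 in old NR hearts, 4 to 6 with age at ZT10 and 1 to 5 at ZT22, 0 to 1 with NR at ZT10 and 0 at ZT22, 5 to 9 in the age by time and 1 in the NR by time interaction, and in the cultures 0 to 1 with FK866, 1 with FK866 and NR against FK866, 0 to 2 against no treatment and 0 in both comparisons with Ex527. In the same fits, 1484 to 2108, 349 to 746 and 455 to 875 of all 15357 to 15513 heart genes passed between the times. With age 478 to 614 and 1321 to 2007 passed, with NR 0 to 22 and 2 to 78, and in the interactions 722 to 1248 and 15 to 78. In the cultures 537 to 778, 523 to 944, 0 to 427, 112 to 291 and 51 to 82 of 15002 to 15101 genes were called. The count of 3 in young hearts came without replicate 1 at ZT10 or replicate 3 at ZT22. The counts of 4 to 5 in old H2O hearts came without replicate 3 at ZT10 or replicates 2 or 3 at ZT22. The 5 in the age by time interaction came without replicate 3 of the old H2O hearts at ZT10, replicate 1 of the young hearts at ZT10 or replicate 3 of the young hearts at ZT22. With age at ZT22 the count was 1 without replicates 2 or 3 of the young hearts and 2 without any 1 of the old H2O hearts. With NR at ZT10, DESeq2 and no filter gave 2 (50 over all genes in each), and only the groups compared and the length index 3 (234 and 98). The atrial covariate and the alike old NR libraries summed as 1 gave 0 there (0 over all genes). With NR at ZT22, DESeq2 gave 1 (55 over all genes) and the length index 2 (121). The length index gave 7 with age at ZT22 (2101 over all genes) and 1 with FK866 (699). It gave 0 with FK866 and NR against FK866 (486) and 0 against no treatment (1), where the other filter also gave 0 (0). Of the 110 settings other than leaving out a library, 94 stayed within 1.5 times the count given.

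The replicate numbers did not pair the samples, since deviations of same-numbered samples correlated between -0.29 and 0.16 and 0 of 12 comparisons met the criterion. With the replicate block the counts were 9, 10 and 4 between the times in young, old H2O and old NR hearts, 7 and 5 with age at ZT10 and ZT22, 3 and 2 with NR, 10 and 1 in the interactions and, in the cultures, 0 with FK866, 1 with FK866 and NR against FK866 and 0 against no treatment and with Ex527. Over all 15443 heart genes the block gave 2419, 762 and 964 between the times and 1023 and 2386 with age. With NR it gave 70 and 86, and in the interactions 1216 and 77. In the cultures it gave 638, 655, 8, 165 and 74 of 14760 genes. Depth left Ccnb1, Mybl2 and Cdc25c, with at most 10 counts in any heart, untested in hearts.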

Other observations

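Among the pathway genes, Cdkn1a and Cenpf had the largest differences between the times in young hearts. Cdkn1a, which encodes the CDK inhibitor p21, was at 19.9, 22.7 and 24.5 CPM in young hearts at ZT10 and at 86.1, 135 and 138 CPM at ZT22. In old H2O hearts Cdkn1a was at 51.0, 39.9 and 48.3 CPM at ZT10 and at 49.8, 77.6 and 87.1 CPM at ZT22, which overlapped, and in old NR hearts at 20.4, 43.6 and 33.6 CPM and at 79.1, 78.4 and 62.6 CPM. Its age by time interaction was 1.76 ± 0.31. Cenpf, which encodes a kinetochore protein, was at 146, 152 and 164 CPM in young hearts at ZT10 and at 60.1, 73.0 and 62.7 CPM at ZT22, while the 12 old hearts held 115 to 211 CPM at both times. Its age by time interaction of -1.37 ± 0.21 was the 1 lower call on that list. Hmmr, a gene of the spindle, was at 4.54, 3.40 and 5.55 CPM in old H2O hearts at ZT10 and at 0.799 to 2.85 CPM in the other 15 hearts.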
